A study of Mus musculus with 9 samples.

Results

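Transcripts of 10 genes of fatty acid uptake and triglyceride resynthesis were followed in mouse small intestine: Cd36, Fabp1, Fabp2, Slc27a4, Acsl5, Mogat2, Dgat1, Dgat2, Agpat2 and Gpat3. They were taken as every probe set (a group of array probes for 1 transcript) annotated to exactly 1 of these symbols, which gave 15 probe sets of the 45037 on the array that are not array controls. All 10 genes were measured, and all 15 probe sets passed the filter on dim signals. Total RNA of adult male mice aged 6 to 8 weeks was hybridized to Affymetrix mouse arrays, 1 array per mouse and 9 in all. The 3 control jejunum and 3 control ileum samples were from different Gata4loxP/+VilCre mice, with 1 loxP-flanked and 1 intact copy of Gata4, which encodes a DNA-binding factor of the proximal gut. The 3 mutant jejunum samples came from Gata4loxP/-VilCre mice, in which the other copy was null. VilCre, a Cre recombinase gene under the villin promoter that is active in intestinal epithelium, was carried by all 3 groups, so the loxP-flanked copy met Cre in controls too. Jejunum was taken 10 cm from the pylorus and ileum 1 cm from the cecum, and the sources used here do not say which layers of gut wall were sampled.

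Dietary fat reaches the enterocyte as fatty acids and monoacylglycerol. CD36 and the transport protein encoded by Slc27a4 act in uptake, the binding proteins encoded by Fabp1 and Fabp2 carry fatty acids in the cytosol, and acyl-CoA synthetases such as that of Acsl5 activate them. MOGAT2 joins an acyl group to monoacylglycerol, and DGAT1 and DGAT2 complete the triglyceride. GPAT3 and AGPAT2 act early in the other route, which starts from glycerol-3-phosphate. The triglyceride is stored in droplets or packed with apolipoproteins into chylomicrons, and fat is mostly absorbed in the proximal small intestine.

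Levels are quantile-normalized log2(intensity + 16), on which an intensity of 0 gives about 4, with errors as SD unless marked SE. Trimmed mean intensity was 148 to 181 on the 6 jejunum arrays and 97.5 to 122 on the 3 ileum arrays, so array brightness and segment cannot be told apart. Spike controls, which are not mouse transcripts, had a geometric mean of 1462 to 1810 on jejunum arrays and 835 to 1043 on ileum arrays. The cause of the dimmer ileum arrays was not tested. The median difference of all 13830 genes tested between control ileum and control jejunum was 0.03 as normalized and -0.41 with no scaling between arrays, where 5.93% of called genes rose against 49.1%. With arrays centred on their medians 33.0% of them rose, as did 62.4% against 47.8% for mutant against control jejunum. For mutant jejunum against control ileum the rises made up 53.6% of calls, 98.1% with no scaling and 78.9% with median centring. The brighter Gata4 probe set averaged 9.53 ± 0.04 in control and 9.50 ± 0.11 in mutant jejunum, against 5.38 ± 0.23 in ileum (SD, n = 3 each). The sources used here do not say whether it lies in the deleted part, so it checks nothing about the deletion. Of the enterocyte markers Vil1, Cdx2, Krt20, Cdh17 and Alpi, none was called between mutant and control jejunum and only Alpi fell in ileum. The mean level of these 5 ran from 12.23 to 12.28 on control jejunum, 11.94 to 12.30 on mutant jejunum and 11.97 to 12.15 on control ileum arrays, so enterocyte transcripts were present in every sample. The ileal markers Fabp6 and Slc10a2 had a mean of 4.44 to 4.72 on control jejunum arrays, 12.05 to 12.38 on control ileum arrays and 11.75 to 12.30 on mutant jejunum arrays. Of the 3 jejunal markers, Lct and Slc46a1 fell in the mutant and all 3 fell in ileum. Among tested markers of pancreatic acini, liver, T cells and B or plasma cells, Alb fell in the mutant, and Alb, Cd3g, Cd79a and Jchain fell in ileum.

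The promoters of Cd36 and Fabp1, the 2 of these genes with the largest differences between segments, are shown because the deleted factor binds DNA at GATA motifs. RefSeq promoter windows (GRCm38.p6, 250 bases before the start site to 50 after it) were matched for 7 of the 10 genes: Cd36, Fabp1, Fabp2, Slc27a4, Acsl5, Agpat2 and Gpat3. Only the 250 bases before the start are printed, 5′ to 3′ on the gene's strand, and capitals mark matches to TTTATG, a motif of CDX factors, or its reverse complement.
Cd36, chr5:17835897-17836146, minus strand: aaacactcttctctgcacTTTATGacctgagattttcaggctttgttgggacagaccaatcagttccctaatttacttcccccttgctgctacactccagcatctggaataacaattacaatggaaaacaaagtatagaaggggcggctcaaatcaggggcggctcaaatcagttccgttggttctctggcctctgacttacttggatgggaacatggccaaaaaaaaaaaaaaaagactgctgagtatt
Fabp1, chr6:71199629-71199878, plus strand: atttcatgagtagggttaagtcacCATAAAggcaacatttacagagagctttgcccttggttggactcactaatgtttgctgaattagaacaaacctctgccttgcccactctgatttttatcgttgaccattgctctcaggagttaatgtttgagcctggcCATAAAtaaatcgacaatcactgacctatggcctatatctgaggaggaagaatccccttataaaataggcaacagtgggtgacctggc
The GATA motifs searched, on both strands, were AGATAA with its variant AGATAG and also TGATAA with its variant TGATAG. None of the 7 windows held one, against 29.8% of all 32851 windows. TTTATG, found in 11.9% of all windows on either strand, occurred once in Cd36 (bases -232 to -227 from the start site), 2 times in Fabp1 (-226 to -221 and -88 to -83) and once in Slc27a4 (-175 to -170). The palindromic HNF1 motif was in none of the 7 and in 0.00913% of all windows. A match is a run of letters, not a measured binding site. Other or shorter forms of the GATA and HNF1 motifs were not searched, so their absence is not shown.

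Group means of 9 of the 10 genes were ordered with control jejunum highest, then mutant jejunum, then control ileum, with Fabp2 overlapping between all groups; Agpat2 was the exception. In control ileum, 8 of 10 fell and none rose against control jejunum (limma, adjusted p under 0.05), where 9.12% of all 13830 genes tested fell and 8.79% rose, 17.9% together. In mutant jejunum, 3 of 10 fell (Cd36, Dgat1 and Dgat2) and 1 rose (Agpat2) against control jejunum, where 2.29% of all genes fell and 2.1% rose, 4.39% together. The median difference over the 10 genes was -0.88 in ileum and -0.42 in the mutant, against 0.03 and 0.00 over all genes. At an unadjusted p under 0.05, 9 of the 10 passed in ileum and 8 in the mutant, against 32.4% and 18.3% of all genes. Groups did not overlap for 8 of 10 genes between control ileum and control jejunum, against 40.1% of all genes. Between mutant and control jejunum 9 of 10 did not overlap, 8 lying below and 1 above, against 25% of all genes. The mutant and ileum comparisons share their control jejunum arrays, so they are not independent of each other.

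**Figure D1:**
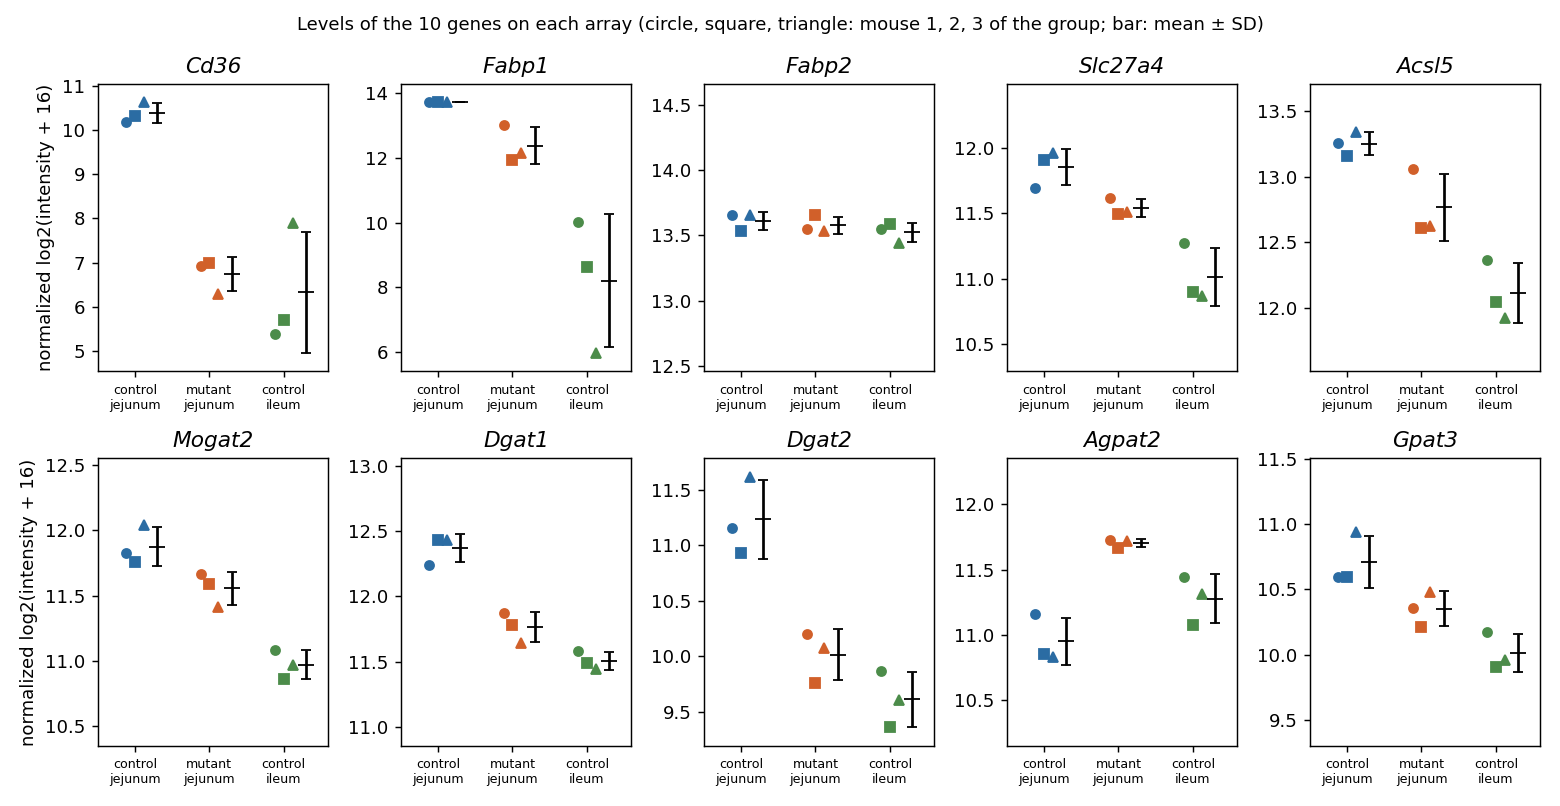
Normalized log2(intensity + 16) of the 10 genes on each of the 9 arrays, by group, with 1 symbol per mouse and the mean ± SD (n = 3) as a bar; each panel has its own axis range. Cd36 dropped from 10.39 to 6.73 in the mutant and 6.32 in ileum, Fabp2 stayed between 13.44 and 13.65 on every array, and Agpat2 was highest in the mutant.

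Cd36, the fatty acid translocase, showed the largest difference of the 10 in mutant jejunum. Its brightest probe set read 10.20, 10.33 and 10.63 on control jejunum arrays 1, 2 and 3, then 6.92, 6.99 and 6.29 on mutant arrays 1, 2 and 3, and 5.39, 5.69 and 7.89 on ileum arrays 1, 2 and 3. The deposited intensities behind these were 1277 to 1903, 65.1 to 130 and 16.7 to 182. All mutant and ileum arrays lay far below all control jejunum arrays, and ileum 3 stood apart from the other two ileum arrays. Cd36 fell by 3.66 ± 0.51 (SE) in the mutant, a 12.6-fold difference on this scale (limma adjusted p = 0.00284), and by 4.07 ± 0.51 in ileum (adjusted p = 0.000422). Without control ileum 3 the ileal difference was -4.87 (adjusted p = 3.51e-06). The other two Cd36 probe sets also fell, with differences of -3.55 (limma adjusted p = 0.000229) and -2.42 (adjusted p = 0.000109) in the mutant and of -3.92 and -2.45 in ileum. The dimmest of the 3 came down to 4.89 to 5.19 in the mutant and 4.74 to 5.45 in ileum, against about 4 for an intensity of 0. Between mutant jejunum and control ileum Cd36 was not called (difference 0.41, 95% interval -0.71 to 1.53, adjusted p = 0.750), but without control ileum 3 it was higher in the mutant by 1.20 (adjusted p = 0.0377). With mutant jejunum 2 left out as well, the difference was 1.07 and was not called (adjusted p = 0.0899).

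Cd36 is also expressed by adipocytes and endothelium, so markers of those cells stand beside it. Adipoq, which encodes the adipocyte hormone adiponectin, spanned 4.10 to 5.09 in control jejunum, while mutant mice 1, 2 and 3 had 4.33, 8.65 and 4.27 and ileum mice 1, 2 and 3 had 4.04, 6.54 and 9.34. Fabp4, the fatty acid binding protein of adipocytes, was at 10.34 in mutant jejunum 2 and 11.05 in control ileum 3 and at 7.44 to 8.47 on the other 7 arrays. Control ileum 3 thus had the highest Cd36 of its group and the highest Adipoq and Fabp4 of all arrays. Of 9 adipocyte markers listed, 7 were on the array and 6 tested. Their mean ran from 6.00 to 6.22 for control jejunum, 6.04 to 7.77 for the mutants and 5.78 to 8.10 for ileum, and none was called between mutant and control jejunum, while Cidec fell in ileum. Cidec did not follow Adipoq across arrays: it read 8.17 to 8.97 on control jejunum arrays and 7.12 on control ileum 3. With mutant jejunum 2 and control ileum 3 both left out, the Cd36 difference was -3.78 in the mutant (adjusted p = 0.000116) and -4.85 in ileum (adjusted p = 1.19e-05). The 6 endothelial markers had a mean of 5.88 to 6.13 in control jejunum, 5.70 to 6.35 in mutant jejunum and 5.56 to 5.66 in ileum, and the 6 macrophage markers 7.64 to 7.67, 7.42 to 8.04 and 7.28 to 7.55. None of these 12 was called in the mutant, and Kdr and Csf1r fell in ileum; the part of these cells in the ileal Cd36 level was not tested. In such bulk RNA, fewer cells of a type and less RNA per cell cannot be told apart.

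**Figure D2:**
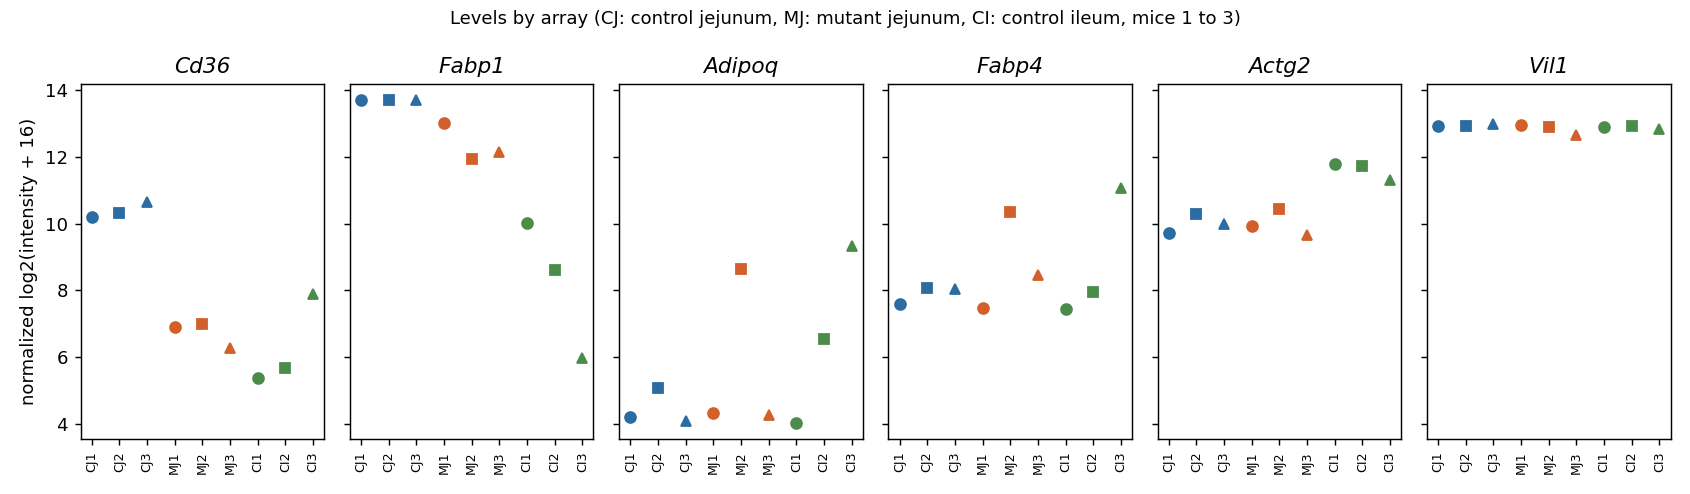
Normalized log2(intensity + 16) of Cd36 and Fabp1 beside the adipocyte markers Adipoq and Fabp4, the smooth muscle marker Actg2 and the enterocyte marker Vil1 on each array (CJ, control jejunum; MJ, mutant jejunum; CI, control ileum; mice 1 to 3). Adipoq and Fabp4 stood high on mutant jejunum 2 (8.65 and 10.34) and control ileum 3 (9.34 and 11.05), while Vil1 lay between 12.65 and 12.99 on every array.

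Fabp1, the liver-type fatty acid binding protein, differed most between the control segments. Each control jejunum array read 13.70, mutant arrays 1, 2 and 3 read 13.01, 11.94 and 12.13, and ileum arrays 1, 2 and 3 read 10.02, 8.63 and 5.99. The probe set held rank 3 by brightness on each control jejunum array, and arrays with the same rank receive the same quantile-normalized value, so the control jejunum SD is 0 by construction. The deposited intensities were 14248, 13498 and 14800 for control jejunum, 9559, 4940 and 4579 for the mutants and 674, 321 and 39.8 for ileum, so the groups overlapped on neither scale. Fabp1 fell by 5.49 ± 0.74 (SE) in ileum, a 45.0-fold difference (limma adjusted p = 0.000677). The size depended on the ileum mice: it was 82.8-fold without control ileum 1 and 20.5-fold without control ileum 3, and was called in both cases. Its ileal SD was 2.04 (n = 3), beside a median ileal SD over all genes of 0.18.

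In mutant jejunum, Fabp1 was lower by 1.34 (95% interval -2.97 to 0.29) and was not called (adjusted p = 0.397), although all 3 mutant arrays lay below all 3 controls. In a limma fit of the mutant and control jejunum arrays alone the same difference was called (adjusted p = 0.0194). The control SD in that fit is 0 by construction. The fit of all 9 arrays takes 1 spread per probe set from all 3 groups. Its standard error for this comparison thus includes the ileum arrays, whose SD was 2.04, beside 0.57 for the mutants. The second Fabp1 probe set, at rank 2 on each control jejunum array, gave a difference of -2.07 in the mutant (adjusted p = 0.131) and fell by 6.12 in ileum (adjusted p = 0.000155). Against control ileum, mutant jejunum was higher by 4.15 (adjusted p = 0.0176) and 4.05 (adjusted p = 0.0127) in the 2 probe sets. For the first, this call was lost without mutant jejunum 1 (adjusted p = 0.0726), without control ileum 2 (adjusted p = 0.0580) or in a fit of these 2 groups alone (adjusted p = 0.0571). Without control ileum 1 the difference was 5.05 (adjusted p = 0.00338) and without control ileum 3 it was 3.03 (adjusted p = 0.00575).

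Fabp2, the intestinal fatty acid binding protein, stayed within 13.44 to 13.65 on all 9 arrays. Control jejunum gave 13.65, 13.53 and 13.65, the mutants 13.55, 13.65 and 13.53, and ileum 13.55, 13.585 and 13.44. The groups overlapped in all 3 comparisons. The difference was -0.035 in the mutant (95% interval -0.20 to 0.13, adjusted p = 0.868) and -0.09 in ileum (-0.25 to 0.07, adjusted p = 0.454). Its probe set ranked between 4 and 17 by brightness on every array, near the top of the scale, where a difference between arrays has little room to show after quantile normalization. The sign of these differences changed with the scaling: trimmed mean scaling gave 0.17 for ileum, and no scaling gave -0.38 (adjusted p = 0.0383) beside a median shift of all genes of -0.41.

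Slc27a4, the fatty acid transport protein of enterocytes, and Acsl5, an acyl-CoA synthetase, both fell in ileum and were not called in the mutant. For Slc27a4, control jejunum gave 11.70, 11.905 and 11.96, the mutants 11.62, 11.50 and 11.51, and ileum 11.27, 10.89 and 10.87. For Acsl5, control jejunum gave 13.26, 13.16 and 13.34, the mutants 13.06, 12.61 and 12.63, and ileum 12.36, 12.05 and 11.92. For both genes the mutant arrays lay between the control groups without overlapping either. In ileum Slc27a4 fell by 0.84 ± 0.12 (limma adjusted p = 0.00109) and Acsl5 fell by 1.14 ± 0.14 (adjusted p = 0.000370). In the mutant the difference was -0.31 for Slc27a4 (95% interval -0.58 to -0.04, adjusted p = 0.221) and -0.49 for Acsl5 (-0.80 to -0.18, adjusted p = 0.0924). With mutant jejunum 1 left out Acsl5 was called (-0.64, adjusted p = 0.0261), as it was with array weights (-0.51, adjusted p = 0.0398). The array weights were lowest for mutant jejunum 3 (0.384) and ran from 0.765 to 1.87 on the other arrays.

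Mogat2, Dgat1 and Dgat2, which carry out the last acylation steps, all fell in ileum, and the DGAT genes also fell in the mutant. Dgat2 read 11.15, 10.92 and 11.61 on the control jejunum arrays, 10.20, 9.76 and 10.08 on the mutant arrays and 9.86, 9.37 and 9.60 on the ileum arrays. Mutant and ileum arrays overlapped each other, and all lay below the control jejunum arrays. Dgat2 fell by 1.22 ± 0.19 in the mutant (adjusted p = 0.00589) and by 1.62 ± 0.19 in ileum (adjusted p = 0.000294). Its second probe set gave differences of -1.02 (adjusted p = 0.0184) and -1.47 (adjusted p = 0.000655). With both arrays of high adipocyte markers left out, the mutant difference was -1.09 and was not called (adjusted p = 0.0509).

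Dgat1 read 12.24, 12.43 and 12.43 on the control jejunum arrays, 11.87, 11.78 and 11.64 on the mutant arrays and 11.58, 11.49 and 11.45 on the ileum arrays. The 3 groups did not overlap. It fell by 0.61 ± 0.10 in the mutant (adjusted p = 0.00623) and by 0.86 ± 0.10 in ileum (adjusted p = 0.000188). The mutant call was lost with no scaling (-0.50, adjusted p = 0.185), with median centring (-0.45, adjusted p = 0.123) and with the median over its 2 probe sets (-0.77, adjusted p = 0.185). The dimmer of these probe sets read 5.93, 8.41 and 7.88 on the control jejunum arrays and 5.99, 6.76 and 6.66 on the mutant arrays, with control jejunum 1 far below the other two, and was not called in the mutant (adjusted p = 0.386).

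Mogat2, which lies next to Dgat2 on chromosome 7 with 0 annotated genes between them in RefSeq, read 11.82, 11.76 and 12.04 on the control jejunum arrays, 11.66, 11.59 and 11.42 on the mutant arrays and 11.08, 10.86 and 10.97 on the ileum arrays. Its groups did not overlap. Mogat2 fell by 0.90 ± 0.11 in ileum (adjusted p = 0.000353) and was not called in the mutant (difference -0.32, 95% interval -0.56 to -0.08, adjusted p = 0.163).

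In the glycerol-3-phosphate route, Agpat2 rose in the mutant and Gpat3 fell in ileum. Agpat2, a lysophosphatidate acyltransferase, read 11.16, 10.86 and 10.84 on the control jejunum arrays, 11.73, 11.67 and 11.72 on the mutant arrays and 11.44, 11.075 and 11.32 on the ileum arrays. All mutant arrays lay above all arrays of both other groups. Agpat2 rose by 0.75 ± 0.12 in the mutant (adjusted p = 0.00673), the only rise among the 10 genes, and this call held in every alternative run, with adjusted p from 0.00253 to 0.0459. In ileum its difference was 0.33 and was not called (adjusted p = 0.0914), except without control jejunum 1 (0.43, adjusted p = 0.0453) or with centring on enterocyte markers (0.51, adjusted p = 0.0418), and it turned to -0.23 with no scaling between arrays, beside the shift of -0.41 for all genes. Gpat3, a glycerol-3-phosphate acyltransferase, read 10.60, 10.59 and 10.94 on the control jejunum arrays, 10.36, 10.21 and 10.48 on the mutant arrays and 10.18, 9.91 and 9.96 on the ileum arrays, with no overlap between groups. It fell by 0.70 ± 0.13 in ileum (adjusted p = 0.00492) and was not called in the mutant (difference -0.36, adjusted p = 0.193), except with array weights (-0.46, adjusted p = 0.0464).

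**Figure D3:**
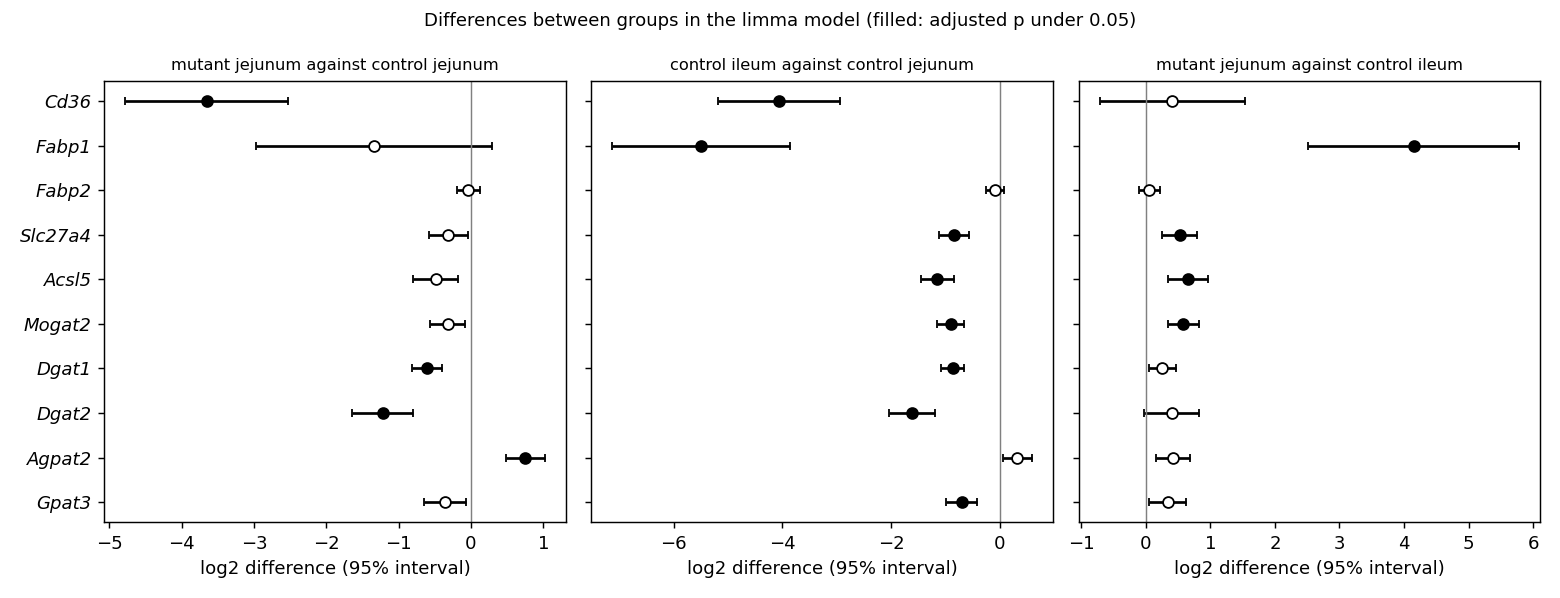
Log2 differences of the 10 genes with 95% intervals in the 3 comparisons; filled points passed adjusted p under 0.05 in limma, and the 3 panels have different axis ranges. Among mutant calls Cd36 (-3.66) and Dgat2 (-1.22) lay furthest left, and Agpat2 (0.75) alone lay to the right. Fabp1 was at -1.34 in the mutant, not called, and lay furthest left in ileum (-5.49).

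Set against control ileum, mutant jejunum had higher levels of 4 of these genes. Fabp1, Slc27a4 (0.53), Acsl5 (0.66) and Mogat2 (0.58) were higher in the mutant, 4 of 10 where 1.97% of all genes rose, and none was lower, where 1.7% fell, 3.67% together. The groups did not overlap for 7 of 10, all with the mutant above, against 22.6% of all genes. At an unadjusted p under 0.05, 7 of 10 passed, against 19% of all genes. Markers of other cell types differed too: 5 of 6 smooth muscle markers were lower in the mutant (Acta2, Myh11, Tagln, Cnn1 and Actg2). The T cell markers Cd3g and Cd8a were higher. Among the listed adipocyte markers Cidec, which did not follow Adipoq across arrays, was higher (1.28). Adipoq (-0.89), Retn (-0.48), Lpl (-0.37), Fabp4 (-0.06) and Pparg (0.06) were not called. The part of these cell types in the differences of the 4 genes was not tested. With centring on enterocyte markers Slc27a4 and Mogat2 were lost (adjusted p = 0.149 and 0.0712), while Fabp1 and Acsl5 were called (adjusted p = 0.00844 and 0.0422). Of those enterocyte markers Alpi differed most between these groups (0.31, not called). The adjusted p-values of Slc27a4, Acsl5 and Mogat2 were 0.0477, 0.0355 and 0.0226. These calls stood close to the threshold: they were lost in 16, 11 and 8 of 23 alternatives, among them leaving out mutant jejunum 2 (adjusted p = 0.107, 0.0522 and 0.0697) or control ileum 2 (0.172, 0.131 and 0.0970). All 3 were also lost without mutant jejunum 1 (0.152, 0.101 and 0.0850) or control ileum 3 (0.130, 0.102 and 0.0552). Without control jejunum 1, 2 or 3, Slc27a4 (0.0576 to 0.0735) and Acsl5 (0.0535 to 0.0569) were lost, as was Slc27a4 without mutant jejunum 3 (0.0567). Cd36, Dgat1, Dgat2, Agpat2 and Gpat3 were not called, with differences of 0.41, 0.26, 0.40, 0.43 and 0.34. Their 95% intervals, which are not adjusted, were -0.71 to 1.53, 0.04 to 0.47, -0.02 to 0.82, 0.16 to 0.69 and 0.05 to 0.63. A mutant level higher by the upper value thus lies within what 3 arrays a group allow.

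Smooth muscle markers differed between the segments. Of 6 smooth muscle markers, 5 rose in ileum against control jejunum and none was called in the mutant. Their mean ran from 9.47 to 10.12 for control jejunum, 9.23 to 9.92 for the mutants and 10.58 to 11.02 for ileum, and their part in the ileal differences was not tested as such. With arrays centred on the 5 enterocyte markers, under which the median difference of all genes was 0.11 in the mutant and 0.21 in ileum against 0.00 and 0.03 as normalized, the ileal differences were -3.88 for Cd36, -5.31 for Fabp1, -0.66 for Slc27a4, -0.96 for Acsl5, -0.72 for Mogat2, -0.68 for Dgat1 and -1.44 for Dgat2, all called. For Gpat3 it was -0.52 and was not called (adjusted p = 0.0569), and Agpat2 was then higher in ileum by 0.51 (adjusted p = 0.0418). In the mutant the same centring gave -3.55 for Cd36, -0.50 for Dgat1, -1.11 for Dgat2 and 0.86 for Agpat2, all called. Of the 5 enterocyte markers, Alpi differed most, by -0.82 in ileum (called) and -0.51 in the mutant (not called). Vil1, Cdx2, Krt20 and Cdh17 lay between -0.15 and 0.17 in both comparisons. The shift made by this centring thus rested mostly on Alpi, and centring without Alpi was not run.

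Other genes of the pathway were taken from a list of 41, of which 38 had a probe set named for that gene alone and 36 were tested. In mutant jejunum 3 of the 36 fell and 1 rose, and in ileum 10 fell and 4 rose, with median differences of -0.05 and -0.13. Over all genes 2.29% fell and 2.1% rose in the mutant, and 9.12% fell and 8.79% rose in ileum. Slc27a2, a fatty acid transport protein that is also an acyl-CoA synthetase, read 10.77, 11.05 and 11.03 on the control jejunum arrays, 9.65, 8.81 and 8.55 on the mutant arrays and 6.998, 7.29 and 7.97 on the ileum arrays. The 3 groups did not overlap. It fell by 1.95 ± 0.29 in the mutant (adjusted p = 0.00390), and its ileal difference was -3.53 (adjusted p = 2.17e-05). Agpat3, a paralog of Agpat2, averaged 7.92 in control jejunum, 6.90 in the mutant and 7.24 in ileum. It fell by 1.03 in the mutant (adjusted p = 0.00129) and by 0.69 in ileum (adjusted p = 0.00426), in all 4 of its probe sets, and the ileal call was lost with centring on enterocyte markers (-0.51, adjusted p = 0.0539). Ffar4, a receptor that senses long-chain fatty acids, rose by 1.07 in the mutant (adjusted p = 0.0226) and by 1.04 in ileum (adjusted p = 0.00809). Leaving out control jejunum 1, 2 or 3 ended its mutant call (adjusted p = 0.0609, 0.0771 and 0.0797), as did leaving out both high-adipocyte arrays (0.0626).

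**Figure D4:**
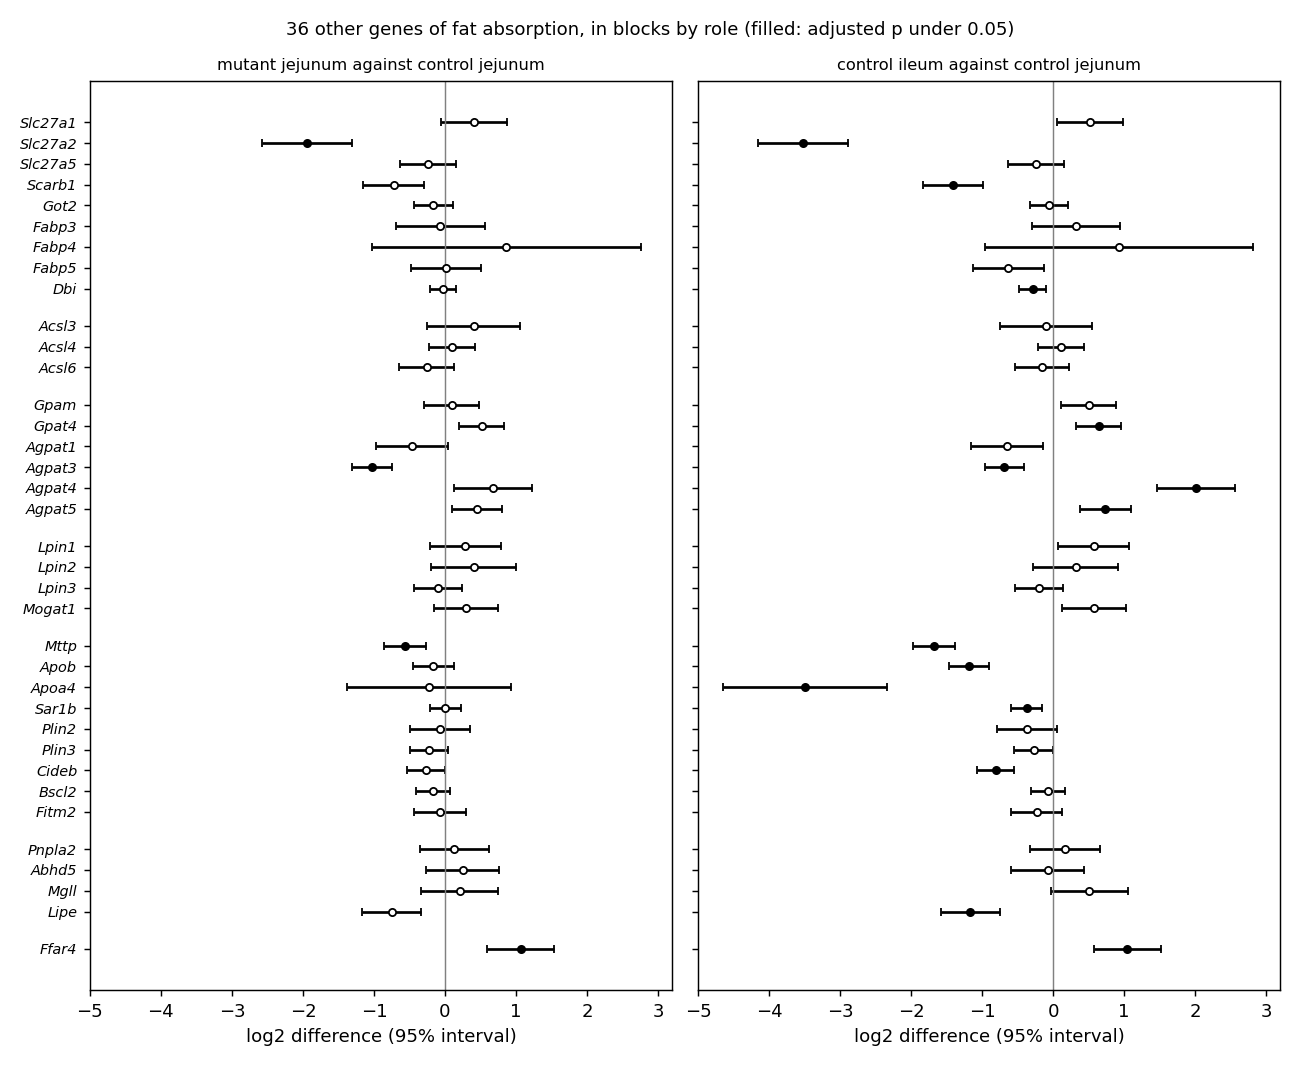
Log2 differences with 95% intervals for 36 other genes of fat absorption, in blocks by role from the top: uptake and binding, acyl-CoA synthetases, early acyltransferases, lipins with Mogat1, droplets and chylomicrons, lipolysis, and Ffar4; filled points passed adjusted p under 0.05 in limma. Apoa4 (-3.50) and Slc27a2 (-3.53) lay furthest left in ileum, whereas in the mutant Apoa4 was at -0.22.

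Of 9 genes of lipid droplets and chylomicron assembly, 5 fell in ileum, where 9.12% of all genes fell, and 1 in the mutant, where 2.29% fell. The difference between these comparisons was not tested. Apoa4, an apolipoprotein of chylomicrons, read 13.10, 13.25 and 13.13 on the control jejunum arrays, 13.18, 12.87 and 12.76 on the mutant arrays and 11.30, 8.43 and 9.25 on the ileum arrays. Mutant and control jejunum overlapped, and all ileum arrays lay lower. Apoa4 fell by 3.50 in ileum (adjusted p = 0.00128) and was not called in the mutant (-0.22, adjusted p = 0.883). Its ileal difference was -4.31 without control ileum 1 and -2.87 without control ileum 2, called in both cases. Apob, the structural protein of the particle, fell by 1.19 in ileum (adjusted p = 0.000172, called in 1 of its 2 probe sets), against -0.16 in the mutant (adjusted p = 0.585). Mttp, which loads lipid onto apolipoprotein B, fell by 1.68 in ileum (adjusted p = 2.07e-05) and by 0.57 in the mutant (adjusted p = 0.0466). That mutant call was lost when any array other than mutant jejunum 1 or control ileum 3 was left out (adjusted p = 0.0554 to 0.171). In all it was lost in 17 of 22 alternatives, among them no scaling (0.342), median centring (0.272), no intensity trend (0.109), enterocyte centring (0.0995), no filter (0.0844), trimmed mean scaling (0.0693) and a pseudocount of 1 (0.0504). Cideb, a droplet protein, fell in ileum by 0.81 (adjusted p = 0.00122), and Sar1b, which acts in the export of chylomicrons from the endoplasmic reticulum, fell by 0.37 (adjusted p = 0.0276). Leaving out control jejunum 1 or 3, or control ileum 2 or 3, ended the Sar1b call (adjusted p = 0.0730, 0.105, 0.0901 and 0.0893). It was lost as well with trimmed mean scaling (0.0667), no filter (0.0532), no intensity trend (0.0824), both high-adipocyte arrays left out (0.124) and centring on enterocyte markers, where the difference was -0.19 (0.315). Against control ileum, mutant jejunum was higher in Apoa4 (3.28), Apob (1.03), Mttp (1.11), Cideb (0.54) and Slc27a2 (1.58). These were 5 of 36 genes, where 1.97% of all genes rose. Apob was called in 1 of its 2 probe sets here too. Only Agpat4 (-1.33) was lower, 1 of 36 where 1.7% of all genes fell. Without mutant jejunum 1 the calls of Apoa4, Slc27a2, Cideb and Agpat4 were lost (adjusted p = 0.0503, 0.0561, 0.146 and 0.0532). Without control ileum 2 those of Slc27a2, Cideb and Agpat4 were lost (0.0816, 0.142 and 0.0913), and Slc27a2 was also lost without control ileum 1 (0.0573). Cideb was lost too without mutant jejunum 2, control ileum 1 or 3, or any control jejunum array (0.0602 to 0.137). With both high-adipocyte arrays left out, Apoa4, Cideb and Agpat4 were lost (0.0828, 0.236 and 0.0691).

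Among the early acyltransferases, Agpat4 rose in ileum by 2.01 (adjusted p = 0.000373), in both of its probe sets. Gpat4 rose there by 0.64 (adjusted p = 0.0129) and Agpat5 by 0.74 (adjusted p = 0.0111), each in 1 of several probe sets, and both calls were lost with no scaling between arrays. Leaving out control jejunum 2 or control ileum 2 also ended the Gpat4 call (adjusted p = 0.0544 and 0.0553), and leaving out both high-adipocyte arrays ended that of Agpat5 (0.0577). These 3 were not called in the mutant, and none of 3 tested acyl-CoA synthetases (Acsl3, Acsl4 and Acsl6) was called in either comparison. Scarb1, the scavenger receptor for lipoproteins and lipids, fell in ileum by 1.41 (adjusted p = 0.000736), and Lipe, which encodes hormone-sensitive lipase, fell by 1.17 (adjusted p = 0.00203). In the mutant Scarb1 (-0.72, adjusted p = 0.0711) and Lipe (-0.75, adjusted p = 0.0550) were not called, although all mutant arrays lay below all control jejunum arrays. Of 3 tested Scarb1 probe sets, 1 was called as fallen in the mutant.

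The spread between mice is given beside that of all genes. The median SD over the 10 was 0.14 for control jejunum, 0.13 for the mutants and 0.205 for ileum, against 0.16, 0.20 and 0.18 over all genes. Across the 9 arrays, which include the group differences, Slc27a4, Acsl5 and Mogat2 had pairwise Pearson correlations of 0.96, and Dgat2 and Gpat3 of 0.95. Cd36 followed Dgat1 (0.89) and Dgat2 (0.88) more closely than Fabp1 (0.53), and Agpat2 was negatively correlated with all 9 others (-0.12 to -0.68). These values describe 9 arrays that share 3 group means and carry no test.

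By the same measure over 9 arrays, each of the 9 genes called in any comparison was set against all other genes tested. Cd36 was closest to Lcmt1, Dennd3, Atpif1, Sfmbt1 and B4galt3 (r = 0.97 to 0.98). Fabp1 was closest to Trim36, Cyp2c65, Lrat, Pcgf5 and Rbp2 (0.98 to 0.99), of which Rbp2 encodes the retinol binding protein of enterocytes and Lrat a retinol esterifying enzyme. Dgat1 was closest to Fras1, Gpr155, Bbox1, Aldh1a2 and Arf5 (0.99), and Dgat2 to Slc7a7, N4bp2l1, Grhpr, Bin1 and Ifnar2 (0.97 to 1.00). Slc27a4 was closest to Igf2r, Fam160b1, 2010003K11Rik, Gpx4 and Acaa2 (0.98 to 0.99). Acsl5 was closest to Mdh2, Tmem167, Slc37a4, Rdh7 and 1810055G02Rik (0.99). Mogat2 was closest to Msra, Tor1a, Khk, Nr1i3 and Cyp2j6 (0.98 to 0.99). Gpat3 was closest to Suco, Gramd1c, Lst1, Crp and 2010003K11Rik (0.96 to 0.98). Agpat2, the gene that rose in the mutant, was closest to Ssu72, Pomc, Cdkn1a, Tk2 and Anxa3 (0.92 to 0.95).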

How the data were processed

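Column-purified total RNA was labelled with biotin in the Affymetrix one-cycle procedure, per the labels' protocols. Per the submitters' processing notes, the deposited probe set intensity values came from GCOS, the Affymetrix scanner software (version and settings not stated there). For analysis, the 64 control probe sets among 45101 were dropped. From log2(intensity + 16), quantile-normalized because array brightness differed, probe sets above the 40th percentile (4.95) on at least 3 of 9 arrays were tested, 29307 in all. The probe set of 1 gene with the highest mean stood for that gene. limma 3.58.1 (R 4.3.3) fitted all 9 arrays with 3 contrasts and an intensity trend; p-values are two-sided and Benjamini-Hochberg adjusted over all probe sets of a contrast, and a gene is called where this is under 0.05. A fold is on the log2(intensity + 16) scale and understates the change of dim genes. The model was tested on simulated data for mutant against control jejunum. It called 58% of simulated log2 changes of 1 and 94% of changes of 2, with 6 false calls. Smaller changes were not simulated. No permutation test was run, since with 3 against 3 arrays its smallest exact p is 0.10. The number of arrays limits the precision.

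Groups come from the sample titles, and each group's mice were separate. Named are the 10 genes, called genes of the pathway list (the 10 with the largest change where more were called, with Sar1b and Gpat4 added after their values were seen), Gata4, markers, and the 5 genes most correlated with a called member. The members and lists were chosen with earlier results of these data known. Array scaling, pseudocount, filter, intensity trend, array weights, probe set choice, the groups in the fit, a replicate block and leaving out each array were varied. Leaving out both arrays with high adipocyte markers and centring on enterocyte markers were added after seeing the data.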

Additional observations from a re-analysis of the deposited data

How the results depend on the processing

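Of 690 values of the 10 genes under the alternatives, 622 kept their sign and their side of the threshold, 43 lost a call, 16 gained one and 9 changed sign. In ileum against control jejunum, the falls of Cd36, Fabp1, Slc27a4, Acsl5, Mogat2, Dgat1 and Dgat2 were called in all 23 alternatives, and that of Gpat3 in 22. In mutant against control jejunum, Cd36 and Agpat2 were called in all 23, Dgat2 in 22 and Dgat1 in 20.

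Sign changes concerned values that were not called as reported. Fabp2 gave 0.17 (ileum) and -0.23 (mutant against ileum) with trimmed mean scaling, 0.0218 (mutant) with median centring, -0.0241 (mutant against ileum) with both arrays of high adipocyte markers left out, and 0.0716, 0.0921 and -0.0205 with centring on enterocyte markers. Agpat2 in ileum gave -0.23 with no scaling, and Cd36 in mutant against ileum ran from -0.0544 to 1.20 when 1 array was left out.

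Of the 10 genes, those higher in mutant jejunum than in control ileum numbered 4 as reported, 8 with no scaling, 7 with median centring, 2 with no filter, 1 with no intensity trend, 0 with the 2 groups alone, 1 without both high-adipocyte arrays, 2 with centring on enterocyte markers and 0 to 4 when 1 array was left out. Of all genes tested, 1.97% were higher as reported, and in the same order of settings 33.2%, 4.33%, 0.967%, 1.19%, 0.803%, 0.601% and 1.07%, with 0.607% to 2.68% when 1 array was left out. The falls in the mutant numbered 5 with array weights, where 4.01% of all genes fell. In ileum 1 gene rose with centring on enterocyte markers, where 12.5% of all genes rose. When 1 array was left out 0 to 1 rose there, where 5.5% to 11.4% of all genes rose. For the pathway list, ileal falls numbered 19 and rises 2 with no scaling, where 36.2% of all genes fell and 2.28% rose, against 10 and 4. Mutant falls of pathway genes numbered 5 and rises 2 with array weights (4.01% and 3.83% of all genes), against 3 and 1. Rises numbered 0 without both high-adipocyte arrays (0.875%) and 0 to 2 when 1 array was left out (0.869% to 2.1%). Against ileum, rises of pathway genes numbered 16 with no scaling, 8 with array weights (3.83% of all genes), 3 with the 2 groups alone, 3 without both high-adipocyte arrays and 2 to 6 when 1 array was left out, and falls 0 without both high-adipocyte arrays and 0 to 1 when 1 array was left out. No scaling leaves the ileum arrays dimmer, and the cause of the other changes was not tested.

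Each group's mice were separate, so the replicate numbers do not pair arrays of 1 mouse. Deviations of same-numbered arrays correlated at -0.07 to 0.17, and an array correlated best with its own number in 8 of 18 cases. With 3 arrays a group these values cannot show whether the mice were matched in another way. With the replicate number as a block, 3 of the 10 genes fell and 1 rose in the mutant. Of all genes, 2.03% fell and 1.83% rose there. In ileum 8 of the 10 fell, where 8.63% of all genes fell. Higher in mutant than in ileum were 3 of the 10, where 1.7% of all genes rose, and Slc27a4 was lost (0.53, adjusted p = 0.0748).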
